A study of Mus musculus with 9 samples.

Results

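The mitosis and cytokinesis genes are 35 genes whose products start mitosis, attach and separate the chromosomes, and then divide the cell. The rule takes them by gene symbol and sets no threshold on a measured value. The list was, however, drawn up with earlier results of these data known. Every probe set that the array's annotation gave to 1 of these symbols alone was taken, and probe sets given several symbols were left out. A probe set is a group of short probes on the array that together report 1 transcript. Of the 35 genes, 34 had a named probe set, and these 34 held 81 of the 45101 probe sets on the array. Ccnb1, which encodes cyclin B1, is the only symbol of no probe set, so no value is given for it. Probe sets with several symbols were not searched for it. All 34 genes lay above the threshold for low values and were among the 12962 genes tested.

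RNA came from 3 lines of mouse embryonic fibroblasts (MEFs), primary cultures grown from embryos, all female and taken at E12.5. The WT line carried both copies of Oga, the Het line 1 copy and the KO line 0 copies. The product of Oga, O-GlcNAcase, strips O-GlcNAc, a single sugar unit, from nuclear and cytoplasmic proteins, and the study compared gene expression when the enzyme is lost. The series' design text states that males with 1 floxed Oga allele, in a background written C57B1/6, were crossed with MMTV-Cre females, and that heterozygous offspring were intercrossed to give embryos of all 3 genotypes. MMTV-Cre drives the recombinase from a mouse mammary tumour virus promoter, and the labels do not say whether the embryos carried it. Each genotype is 1 line, with 3 technical replicate arrays, so genotype cannot be told apart from any other difference between the lines. Every p-value therefore measures only the spread between arrays of a line.

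Cyclin B bound to the kinase CDK1 starts mitosis, and the spindle checkpoint then holds the cell until every chromosome is attached to spindle microtubules. The anaphase-promoting complex, activated by CDC20, ends the hold by marking cyclin B and securin for destruction, and the contractile ring then pinches the cell apart. Transcripts of most of these genes are scarce in resting cells and accumulate in G2 and mitosis, so in a fibroblast culture their level is widely read as a sign of how many cells are dividing. In RNA from a whole culture, fewer dividing cells and less RNA per dividing cell cannot be told apart.

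In these lines the mitosis and cytokinesis genes differed in both directions and by small amounts. Between the KO and WT lines 7 of 34 were higher and 10 lower, shares close to the 21.6% and 31.5% of all genes tested, and the largest difference, in the spindle gene Nusap1, was 1.39-fold. Between the Het and WT lines 9 were higher and 0 lower, where 13.4% and 21.0% of all genes were. Between the KO and Het lines 3 were higher and 14 lower, where 23.7% and 28.6% of all genes were. With 1 probe set per gene, no member differed by 1.5-fold in any of the 3 comparisons. A second probe set of Cenpe did, between KO and WT and between Het and WT.

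Many genes of this kind share promoter elements, and the promoters of 4 members with large differences are shown. Nusap1 and Ccnb2 had the largest falls between KO and WT, and Anln the largest rise after Ect2. Cdc20 had the largest rise between Het and WT. The cell cycle genes homology region (CHR, searched as TTTGAA) is bound by the MuvB complex with its partners, and the CCAAT box by the factor NF-Y. Both motifs were searched on both strands, with overlapping matches allowed, in the 250 bases before and 50 bases after each transcription start, from RefSeq (GRCm38.p6). Capitals mark the matches, including the reverse complements TTCAAA and ATTGG. Nusap1 (chr2:119618048-119618347, plus strand) and Ccnb2 (chr9:70421505-70421804, minus strand) were lower in KO, and Cdc20 (chr4:118437294-118437593, minus strand) and Anln (chr9:22389157-22389456, minus strand) were higher.
Nusap1: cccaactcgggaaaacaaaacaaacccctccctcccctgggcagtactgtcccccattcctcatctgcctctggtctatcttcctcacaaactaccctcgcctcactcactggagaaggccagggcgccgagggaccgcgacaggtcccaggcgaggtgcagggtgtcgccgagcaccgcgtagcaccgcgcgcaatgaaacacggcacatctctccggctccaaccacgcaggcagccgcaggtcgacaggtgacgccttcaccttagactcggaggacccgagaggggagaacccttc
Ccnb2: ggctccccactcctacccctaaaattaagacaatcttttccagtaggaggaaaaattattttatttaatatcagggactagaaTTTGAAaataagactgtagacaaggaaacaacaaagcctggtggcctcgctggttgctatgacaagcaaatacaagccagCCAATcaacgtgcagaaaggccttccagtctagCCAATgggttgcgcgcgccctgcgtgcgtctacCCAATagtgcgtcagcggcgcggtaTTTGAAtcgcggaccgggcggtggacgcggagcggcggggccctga
Cdc20: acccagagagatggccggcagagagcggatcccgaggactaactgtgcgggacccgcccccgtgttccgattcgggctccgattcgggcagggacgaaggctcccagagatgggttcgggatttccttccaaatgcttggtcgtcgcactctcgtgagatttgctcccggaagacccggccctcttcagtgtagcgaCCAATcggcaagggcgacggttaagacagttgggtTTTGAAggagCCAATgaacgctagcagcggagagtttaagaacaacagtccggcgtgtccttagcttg
Anln: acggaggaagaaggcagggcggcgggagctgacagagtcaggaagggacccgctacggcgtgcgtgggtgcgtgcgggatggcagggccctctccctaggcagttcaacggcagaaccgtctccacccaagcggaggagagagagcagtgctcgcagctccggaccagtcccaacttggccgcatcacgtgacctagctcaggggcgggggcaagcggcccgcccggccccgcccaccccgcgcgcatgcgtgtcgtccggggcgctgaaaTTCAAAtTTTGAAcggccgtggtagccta
Ccnb2 held 2 CHR and 3 CCAAT matches, Cdc20 1 and 2, and Anln 2 and 0, while this window of Nusap1 held 0 of either. Ect2, whose letters are not printed, held 2 CHR and 3 CCAAT matches in each of its 2 promoters. A promoter was found for 29 of the 35 members, not for Ccna2, Cdc25c, Tpx2, Aurkb, Incenp or Kif20a. A CHR match stood in 79.3% of the 29 and a CCAAT match in 79.3%, and 69% held both. Over all 27025 genes with a promoter the shares were 20.2%, 41.1% and 7.97%. Members that were higher in KO than in WT held a CHR match in 6 of 6 promoters and members that were lower in 7 of 9, with a CCAAT match in 4 of 6 and 8 of 9. Genes of both directions thus carried both motifs, and these letters are a description of the windows, not of binding.

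The deposited values are on a log2 scale, where a difference of 1 is 2-fold. Oga checked the labels: its most abundant probe set read 11.89 to 11.95 in the WT arrays, 11.16 in the 3 Het arrays and 6.03 to 6.08 in the KO arrays. Array values correlated at 0.997 to 0.999 within lines and at 0.989 to 0.996 between lines, and array medians lay between 6.87 and 6.95. As a sign of RNA quality, actin read higher at its 3' than at its 5' control probe set by 0.06 to 0.08 in WT, 0.09 to 0.12 in Het and 0.05 to 0.09 in KO arrays. For GAPDH that difference was -0.09 to -0.07 in WT, -0.0077 to 0.0041 in Het and -0.10 to -0.04 in KO arrays, so the Het arrays were highest in both, and the part of this in the members' values was not tested. All 13 fibroblast markers looked at lay above the low-value threshold. The median SD between arrays of a line was 0.046 over the members and 0.063 over all genes tested.

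Between KO and WT, 7 members (20.6%) were higher and 10 (29.4%) lower at a limma adjusted p below 0.05, adjusted over all genes tested by the Benjamini-Hochberg method. Of all genes tested, 21.6% were higher and 31.5% lower, so the members' shares lay close to the background. Without WT array 1, 4 members were higher and 8 lower. The members' differences had a median of 0.02 on the log2 scale, beside -0.03 over all genes, and a median absolute size of 0.12, beside 0.15. Of all genes, 9.57% passed with a difference of at least 1.5-fold and 3.56% with at least 2-fold, while 0 of the 34 members did either. The 95% intervals of all 34 lay between 1.52-fold lower and 1.44-fold higher. The KO and WT arrays did not overlap in 22 members (64.7%), and in 61.8% of all genes.

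**Figure D1:**
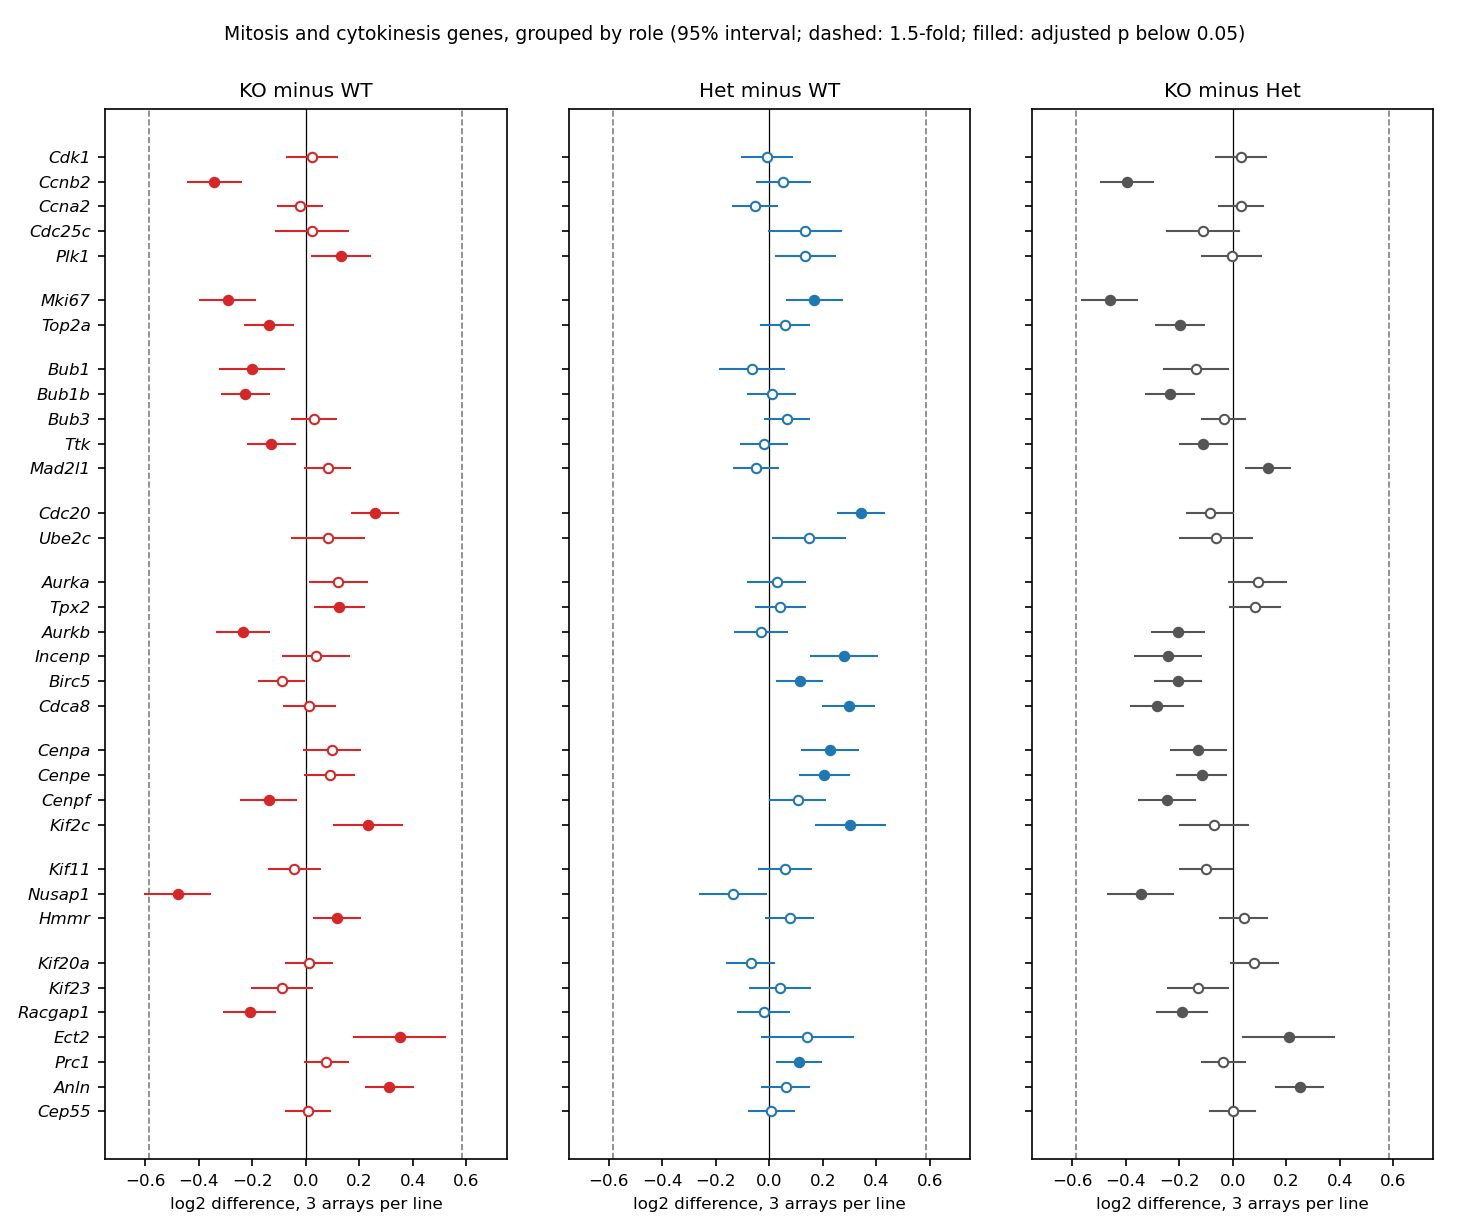
Each row is a member, grouped by role, and the panels give the log2 difference of KO and WT, of Het and WT and of KO and Het, with the 95% interval from limma; filled points passed at an adjusted p below 0.05 and dashed lines mark 1.5-fold. Every point lies inside the 1.5-fold lines, with higher and lower genes mixed in the KO and WT panel.

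Among the 5 tested genes of the switch into mitosis, 1 was higher and 1 lower between KO and WT. Those shares were 20.0% each, beside 21.6% and 31.5% of all genes, and so small a group was not tested as one. Cdk1, the kinase that starts mitosis, read 11.46, 11.51 and 11.50 in the WT arrays, 11.41, 11.50 and 11.54 in the Het arrays and 11.50, 11.50 and 11.53 in the KO arrays. The 3 lines overlapped, and the KO minus WT difference was 0.02 ± 0.042 (SE; adjusted p = 0.664), with an interval of -0.07 to 0.12. Ccnb2, which encodes cyclin B2, a partner of CDK1, read 10.76, 10.82 and 10.77 in WT, 10.76, 10.85 and 10.90 in Het and 10.41, 10.43 and 10.49 in KO. Every KO array was below every WT and Het array, and the difference from WT was -0.34 ± 0.045 (adjusted p = 6.39e-05). Plk1, a kinase of mitotic entry and centrosome maturation, read 10.45, 10.53 and 10.49 in WT, 10.54, 10.61 and 10.71 in Het and 10.61, 10.58 and 10.67 in KO. The WT arrays were the lowest, and the KO line was above WT by 0.13 ± 0.050 (adjusted p = 0.0455). Without 1 of WT arrays 1 and 3, Het array 2 or any KO array, the adjusted p for Plk1 was 0.0526 to 0.139. Ccna2 encodes cyclin A2, the CDK partner of S phase and G2, and Cdc25c a phosphatase that activates CDK1. These genes differed between KO and WT by -0.02 and 0.02 and did not pass. Another probe set of Ccna2, fitted among all probe sets, gave -0.11 (adjusted p = 0.108), with every KO array below every WT array. Between KO and Het it gave -0.25 (adjusted p = 0.003), where the probe set used gave 0.03 (0.668).

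Both genes of chromosome structure were lower in KO than in WT, where 31.5% of all genes were lower. The call for Top2a depended on the probe sets and arrays used. Mki67, whose protein Ki-67 coats mitotic chromosomes and is the common stain for proliferating cells, read 11.64, 11.68 and 11.64 in WT, 11.91, 11.76 and 11.79 in Het and 11.38, 11.38 and 11.31 in KO. The 3 lines did not overlap, with Het highest and KO lowest, and the KO minus WT difference was -0.29 ± 0.047 (adjusted p = 0.000292). Top2a, the topoisomerase that untangles sister DNA strands, read 11.98, 11.91 and 11.91 in WT, 11.97, 11.98 and 12.03 in Het and 11.82, 11.82 and 11.74 in KO. The KO arrays were the lowest, by -0.14 ± 0.041 from WT (adjusted p = 0.0142), and the adjusted p was 0.0611 without WT array 1 and 0.0522 without KO array 3. Top2a has another probe set above the low-value threshold, which went the other way, at 0.23. Fitted among all probe sets, neither of these passed, with adjusted p of 0.053 for the probe set used and 0.0573 for the other. A further probe set of Top2a, below the low-value threshold, was lower in that fit at -0.34 (adjusted p = 0.00715). The mean of the Top2a probe sets above the threshold gave 0.047.

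Of the 5 spindle checkpoint genes, which delay anaphase until chromosomes are attached, 3 were lower in KO than in WT, where 31.5% of all genes were lower, and so small a group was not tested as one. They were the kinase gene Bub1 at -0.20, Bub1b, which encodes the checkpoint protein BubR1, at -0.23, and the kinase gene Ttk at -0.13, with adjusted p of 0.00893, 0.00064 and 0.0169. The call for Ttk was lost without WT array 3 (0.0653) or KO array 3 (0.0589). Mad2l1, which encodes the inhibitor of CDC20 made by the checkpoint, differed by 0.08 (adjusted p = 0.093), and Bub3, which brings BUB1 and BubR1 to the kinetochore, by 0.03.

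Cdc20, the activator of the anaphase-promoting complex, was higher in KO. It read 11.23, 11.31 and 11.26 in WT, 11.60, 11.59 and 11.63 in Het and 11.49, 11.52 and 11.56 in KO, with every WT array below every other array. KO exceeded WT by 0.26 ± 0.039 (adjusted p = 0.000206). The probe set used carries the suffix _x_at, which marks probes that may also match other transcripts, and the probe set of Cdc20 without that suffix gave 0.05 (adjusted p = 0.371 when such probe sets were left out). Ube2c, the ubiquitin-conjugating enzyme of the same complex, differed by 0.08 and did not pass.

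The 6 Aurora and passenger genes held 1 higher and 1 lower call between KO and WT (16.7% each), beside 21.6% and 31.5% of all genes. Aurkb, the kinase of the chromosomal passenger complex, which corrects faulty attachments and acts at the cleavage site, read 9.57, 9.55 and 9.52 in WT, 9.46, 9.52 and 9.57 in Het and 9.38, 9.28 and 9.27 in KO. KO lay below both other lines, by -0.24 ± 0.044 from WT (adjusted p = 0.000937). Its other probe set, read among all probe sets, gave -0.06 and did not pass. Aurka, the kinase of the spindle poles, differed by 0.12 (adjusted p = 0.0549, and 0.0155 without Het array 1 or 0.0406 without Het array 3), and its activator Tpx2 rose by 0.12 (adjusted p = 0.0269). Tpx2 lost its call without WT array 1 (0.116), WT array 3 (0.0576) or KO array 1 (0.0924). Fitted among all probe sets, the probe set used for Tpx2 did not pass (adjusted p = 0.0833). Other probe sets of Tpx2 passed there in opposite directions, at -0.23 and 0.37. The other genes of the passenger complex, Birc5 (survivin), Incenp and Cdca8 (borealin), differed between KO and WT by -0.09, 0.04 and 0.01 and did not pass.

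At the centromere, Kif2c, a kinesin that takes microtubules apart at faulty attachments, read 10.32, 10.34 and 10.37 in WT, 10.70, 10.57 and 10.68 in Het and 10.50, 10.70 and 10.53 in KO. Every WT array was below every Het and KO array, and KO exceeded WT by 0.23 ± 0.058 (adjusted p = 0.00571). This probe set too has the suffix _x_at, and without such probe sets the difference was 0.02 (adjusted p = 0.758). Cenpf, a large kinetochore protein gene, fell by 0.14 (adjusted p = 0.0265), a call that was lost without WT array 1, WT array 3, KO array 1 or KO array 2 (0.0667 to 0.107). Cenpa, the centromeric histone, and Cenpe, a kinetochore kinesin, differed by 0.10 and 0.09, with adjusted p of 0.106 and 0.0961, and Cenpe passed without KO array 2 (0.0458) and, at 0.40, with the mean of its probe sets (9.36e-06).

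Nusap1, which encodes a protein that binds and bundles spindle microtubules, had the largest KO and WT difference of the members. It read 10.30, 10.14 and 10.21 in WT, 10.06, 10.14 and 10.04 in Het and 9.79, 9.78 and 9.64 in KO. All KO arrays were below all others, by -0.48 ± 0.056 from WT (adjusted p = 2.62e-05). Its other probe set lies below the low-value threshold and gave -0.09. Hmmr, a spindle protein gene, rose by 0.12 (adjusted p = 0.027, and 0.0675 to 0.0937 without WT array 1, WT array 2 or KO array 2). Kif11, the motor that pushes the spindle poles apart, differed by -0.04 and did not pass, while the mean of its probe sets gave -0.14 (adjusted p = 0.0185).

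Among the 7 genes of cytokinesis, 2 (28.6%) were higher in KO than in WT and 1 (14.3%) lower, beside 21.6% and 31.5% of all genes. So small a group was not tested as one. A scaffold of the contractile ring and an activator of the ring were higher, and a partner of that activator was lower. Ect2, which switches on RhoA at the cleavage site, read 8.90, 8.73 and 8.90 in WT, 9.05, 9.03 and 8.88 in Het and 9.26, 9.29 and 9.03 in KO. The KO arrays lay above the WT arrays while Het overlapped both, and the difference was 0.35 ± 0.077 (adjusted p = 0.0026). Anln, which encodes anillin, a scaffold of the ring, read 10.61, 10.58 and 10.66 in WT, 10.71, 10.68 and 10.65 in Het and 10.92, 10.97 and 10.89 in KO. KO was above both other lines, by 0.31 ± 0.040 from WT (adjusted p = 5.75e-05). Racgap1, which recruits ECT2 and forms the centralspindlin complex with KIF23, fell by 0.21 (adjusted p = 0.00173). The kinesin genes Kif23 and Kif20a, the midzone bundler Prc1 and the abscission gene Cep55 differed by -0.09, 0.01, 0.08 and 0.0081 and did not pass. Prc1 passed at 0.20 (adjusted p = 0.00154) without probe sets of suffix _s_at or _x_at, of which _s_at marks probes shared by several transcripts, and at 0.14 (0.00893) with the mean of its probe sets.

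**Figure D2:**
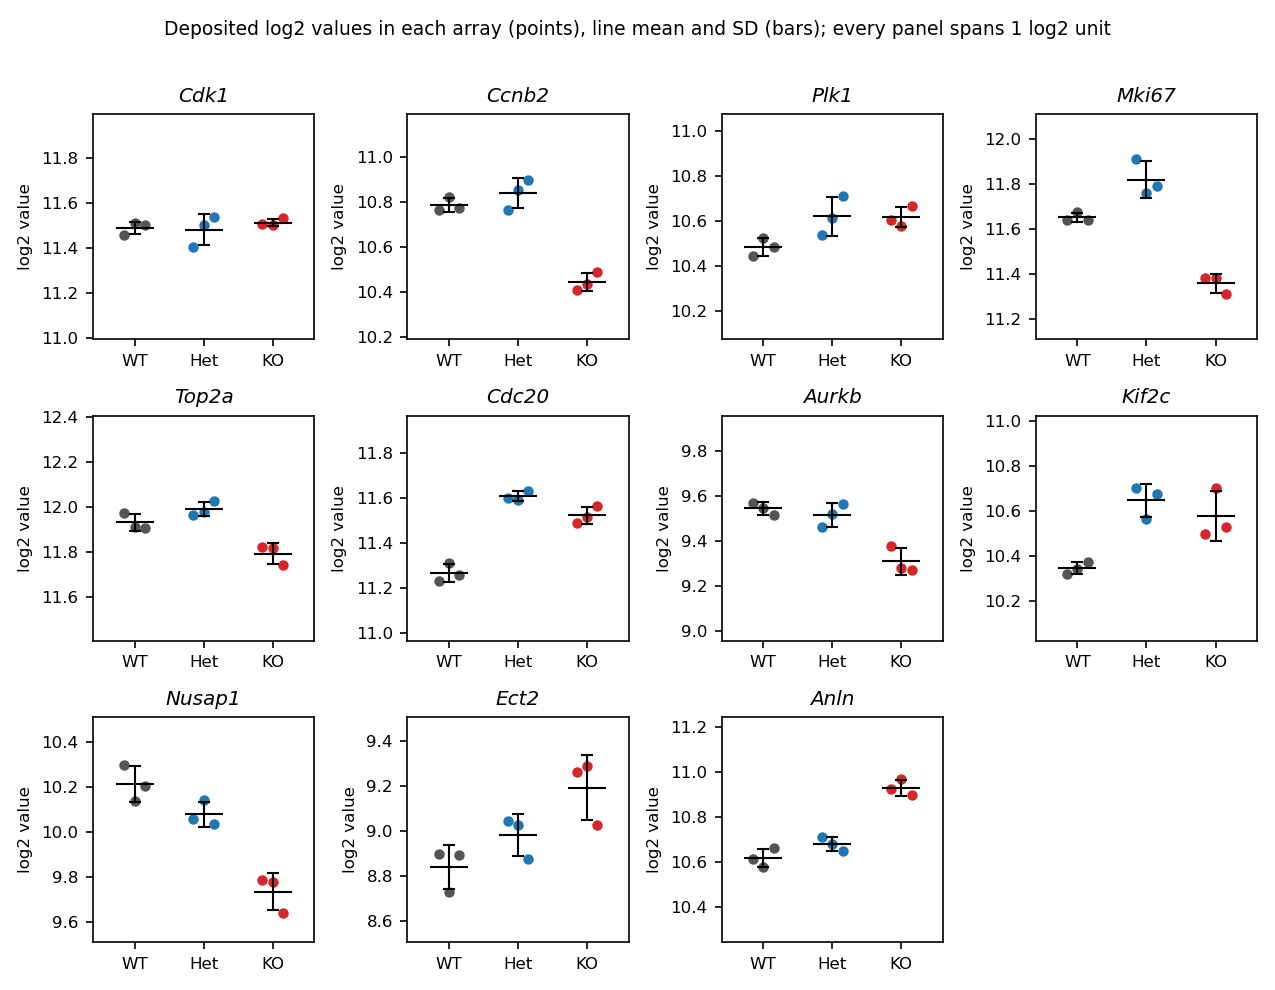
Each panel shows 1 member, with the deposited log2 value of every array as a point over the WT, Het and KO lines and bars for the line mean and SD; every panel spans 1 log2 unit. Nusap1, Ccnb2, Mki67 and Aurkb are lowest in KO, Ect2 and Anln highest in KO, and Cdc20 and Kif2c lowest in WT.

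Between Het and WT, 9 members (26.5%) were higher and 0 lower, while 13.4% of all genes were higher and 21.0% lower. One member, Nusap1 at -0.14, was lower at an unadjusted p below 0.05 in the same limma fit (adjusted p = 0.0841). The median difference was 0.06, beside -0.01 over all genes, and the largest was 1.27-fold, in Cdc20. Differences of at least 1.5-fold were passed by 0 members and 1.82% of all genes, and of at least 2-fold by 0 members and 0.255%. The arrays of the 2 lines did not overlap in 14 members (41.2%) and in 47.7% of all genes. The 95% intervals of all members lay between 1.20-fold lower and 1.35-fold higher.

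By role, the 9 members called higher in Het divided as follows, with 13.4% of all genes higher and no test of a role as a group. Of the 4 centromere genes, Kif2c (0.30), Cenpa (0.23) and Cenpe (0.20) were higher, with adjusted p of 0.0024, 0.00396 and 0.00341, and Cenpf differed by 0.11 (adjusted p = 0.103). Of the 6 Aurora and passenger genes, Cdca8 (0.30), Incenp (0.28) and Birc5 (0.11) were higher, with adjusted p of 0.000485, 0.00311 and 0.0421, while Aurka, Tpx2 and Aurkb did not pass. The rest were Cdc20 (0.34 ± 0.039, adjusted p = 9.47e-05), Mki67 (0.17 ± 0.047, adjusted p = 0.0174) and Prc1 (0.11, adjusted p = 0.0373). In the array values given above, every Het array of Cdc20, Kif2c and Mki67 exceeded every WT array.

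Several of these calls depended on which probe sets or arrays were used. Without probe sets of suffix _s_at or _x_at, 6 members were higher and 1 lower, Cdc20 differed by 0.11 (adjusted p = 0.107), Incenp by 0.14 (0.0927), Cdca8 by -0.021 (0.832) and Kif2c by -0.0068 (0.931). Fitted among all probe sets, another _x_at probe set of Cdc20 was higher in Het, at 0.22 (adjusted p = 0.021). A probe set of Incenp with neither suffix was higher there at 0.52 (0.00613), while another gave -0.16 and did not pass. Birc5 lost its call without any 1 of the WT arrays, Het arrays 2 or 3 or KO array 1 (0.0551 to 0.135). Prc1 lost it without WT arrays 1 or 3 or Het arrays 2 or 3 (0.0732 to 0.136), and Mki67 without WT array 1 (0.0531) or WT array 3 (0.0554). Without Het array 1, the adjusted p of Plk1, Ube2c and Cdc25c was 0.0213, 0.0346 and 0.0419, and 12 members were higher. Of the 9 members, Cenpa and Cenpe passed in every alternative that was run, apart from the 1.5-fold and 2-fold minimums, which no member reached. Scaling also mattered: with each array centred on its median, 6 members were higher and 1 lower, and with quantile normalization 13 were higher and 0 lower. Among all genes that passed, 38.9% were higher in Het, and this share was 24.9% after median centring and 48.7% after quantile normalization.

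Between KO and Het, 3 members (8.82%) were higher and 14 (41.2%) lower, where 23.7% of all genes were higher and 28.6% lower. This comparison shares its arrays with the other comparisons, so its values are not independent of theirs. The median difference was -0.11, beside -0.02 over all genes. Differences of at least 1.5-fold were passed by 0 members and 6.90% of all genes, and of at least 2-fold by 0 members and 2.0%. The 2 lines' arrays did not overlap in 23 members (67.6%) and in 57.9% of all genes. All 95% intervals lay between 1.48-fold lower and 1.30-fold higher. With median centring 6 members were higher and 11 lower, and with quantile normalization 2 were higher and 20 lower. Among all genes that passed, 45.4% were higher in KO, and this share was 58% after median centring and 41.1% after quantile normalization.

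Of the 14, the largest falls were in Mki67 (-0.46 ± 0.047, adjusted p = 1.21e-05), Ccnb2 (-0.40 ± 0.045, adjusted p = 2.75e-05) and Nusap1 (-0.34 ± 0.056, adjusted p = 0.00037). For Nusap1 and Ccnb2 the KO minus WT differences were -0.48 and -0.34, and for Mki67 -0.29, with Het minus WT differences of -0.14, 0.05 and 0.17. Of the 6 Aurora and passenger genes 4 fell, where 28.6% of all genes were lower: Cdca8 by 0.28, Incenp by 0.24, Aurkb by 0.21 and Birc5 by 0.20, with adjusted p of 0.000259, 0.00385, 0.00239 and 0.00107. Aurka and Tpx2 differed by 0.09 and 0.08 and did not pass. Cdca8 differed by -0.05 (adjusted p = 0.581) without probe sets of suffix _s_at or _x_at. Cenpf, Bub1b, Top2a and Racgap1 fell by 0.25, 0.24, 0.20 and 0.19. Cenpa, Cenpe and Ttk fell by 0.13, 0.12 and 0.11. The call for Cenpa was lost without WT arrays 1 or 3, Het arrays 2 or 3 or KO arrays 1 or 2 (adjusted p 0.051 to 0.146), that for Cenpe without WT array 3, Het arrays 1 or 3 or KO arrays 2 or 3 (0.052 to 0.136), and that for Ttk without WT arrays 1 or 3, Het arrays 2 or 3 or KO arrays 1 or 3 (0.0527 to 0.113).

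The 3 higher members were Anln by 0.25 ± 0.040 (adjusted p = 0.000341), Ect2 by 0.21 ± 0.077 (adjusted p = 0.0402) and Mad2l1 by 0.13 ± 0.038 (adjusted p = 0.0131). The Ect2 arrays of the 2 lines overlapped, and its adjusted p was 0.0589 to 0.15 without Het arrays 2 or 3 or KO arrays 1 or 2. Calls were gained without 1 array for Bub1 (0.00911 without KO array 1) and Kif23 (0.0214 without Het array 2 and 0.0313 without KO array 1), and without Het array 1 for Kif11 (0.0487), Kif20a (0.0458) and Cdc25c (0.0481).

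**Figure D3:**
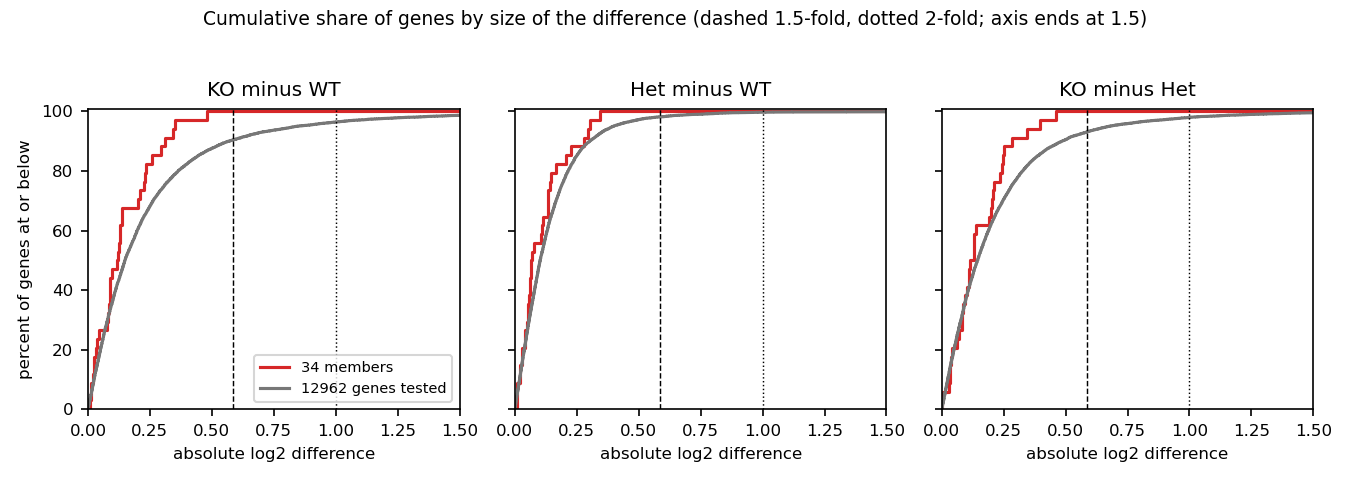
The curves give the cumulative percent of genes against the absolute log2 difference, for the 34 members and for all 12962 genes tested, in each comparison; dashed and dotted lines mark 1.5-fold and 2-fold. The members' curves reach 100% at 0.48, 0.34 and 0.46, before the 1.5-fold line, while the curves of all genes run on past it.

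Set against all genes, the members were spread over a narrow range. The largest member difference was reached or passed by 13.2% of all genes between KO and WT, by 7.49% between Het and WT and by 11.0% between KO and Het. By the order of the line means, Het was highest in 19 of the 34 members and in 29.2% of all genes. WT was lowest in 17 of the 34 members and in 28.4% of all genes. The order Het over KO over WT, as in Cdc20 and Kif2c, held in 11 of the 34 members and in 10.8% of all genes. Het over WT over KO, as in Mki67 and Ccnb2, held in 8 of the 34 members and in 18.4% of all genes. Neighbours in these orders often did not differ beyond their spread, as Cdc20 in KO and Het (-0.08, adjusted p = 0.0926) and Ccnb2 in WT and Het (0.05, adjusted p = 0.395). Measured against the WT mean of each gene, the median member lay at -0.02 to 0.02 in the WT arrays, 0.04 to 0.09 in the Het arrays and -0.0057 to 0.04 in the KO arrays.

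Of the 34 members, 21 had several probe sets above the low-value threshold, and these did not always move together. Fitted among all 45037 probe sets, 12 of the 81 member probe sets were higher and 13 lower between KO and WT, 16 and 5 between Het and WT, and 5 and 21 between KO and Het. The share of all probe sets that passed in either direction was 28.9%, 21.0% and 26.6%. Bub1b and Racgap1 had every probe set above the threshold lower in KO than in both other lines. Cenpa and Cenpe had every such probe set higher in Het than in WT. A second probe set of Cenpe exceeded 1.5-fold, at 0.72 between KO and WT and 0.63 between Het and WT, the only one of the 81 to do so in these comparisons, while the probe set used for Cenpe gave 0.09 and 0.20. Kif2c had probe sets that passed at 0.30 and at -0.28 between Het and WT, and Hmmr and Cep55 had one each at -0.52 and -0.49. The reason for such splits was not tested.

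**Figure D4:**
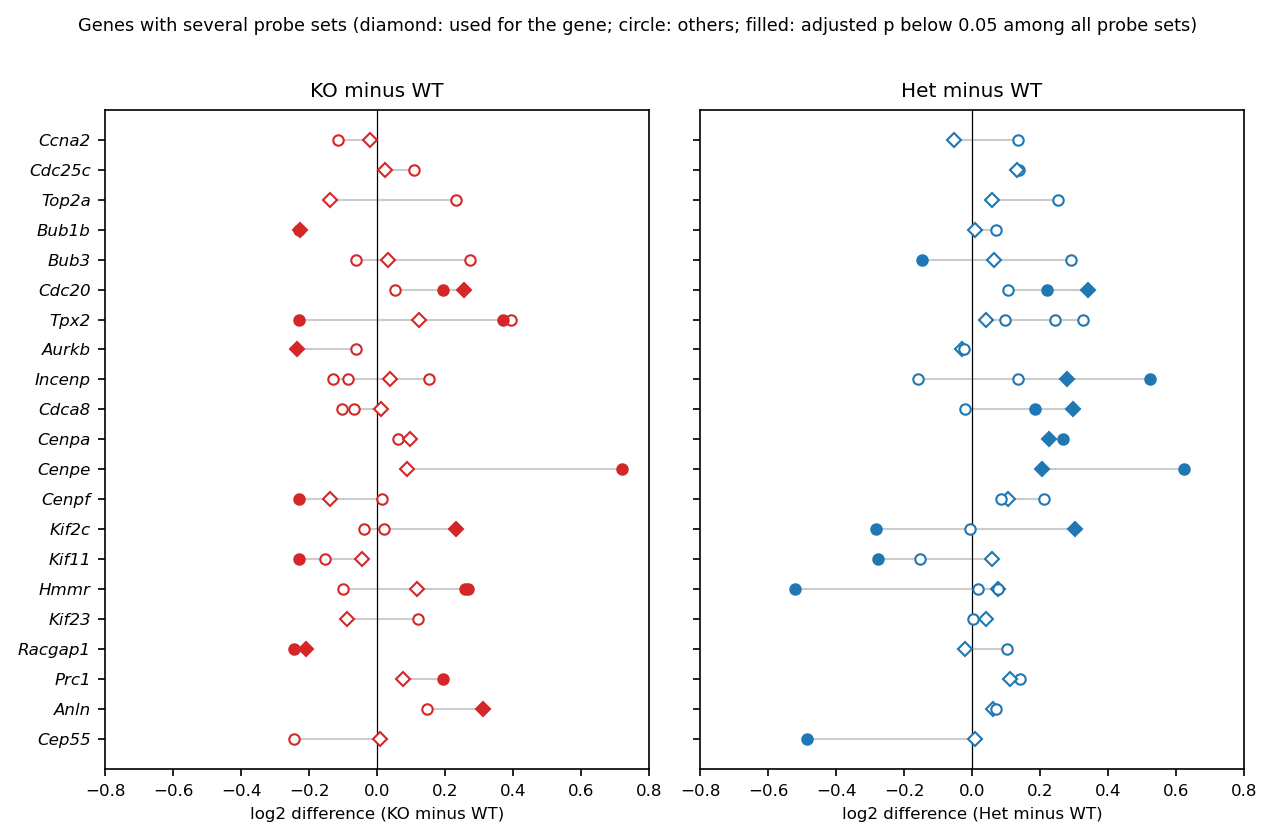
Each row is a member with several probe sets, with the log2 difference between KO and WT and between Het and WT of each probe set above the low-value threshold; the diamond is the probe set used for the gene, circles are the others and filled marks passed among all probe sets. Probe sets of several members, among them Tpx2, Kif2c, Hmmr, Top2a, Incenp, Bub3 and Ccna2, lie on both sides of 0 in at least 1 panel. Those of Bub1b and Racgap1 lie below 0 in the KO and WT panel.

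Other genes of the cell cycle were read beside the members. Of 58 other mitosis genes tested, 11 (19.0%) were higher and 17 (29.3%) lower between KO and WT, with a median of -0.04, beside 21.6% and 31.5% of all genes. Between Het and WT 16 (27.6%) were higher and 3 (5.17%) lower, beside 13.4% and 21.0% of all genes. The median of this list was 0.09. Between KO and Het 10 (17.2%) were higher and 29 of the 58 lower, beside 23.7% and 28.6% of all genes. The median of the list was -0.13 there. Gtse1, a microtubule-associated protein gene of G2 and mitosis, was the 1 gene of this list past 1.5-fold between KO and WT, at 0.78, and Cdc25b, a phosphatase that activates CDK1, was at -0.53. Zwint and Cenpm, kinetochore genes, differed by 0.52 and -0.47.

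S phase genes copy the DNA before mitosis. Of 33 tested, 2 (6.06%) were higher and 16 (48.5%) lower between KO and WT, beside 21.6% and 31.5% of all genes. The median was -0.13. Between Het and WT 6 (18.2%) were higher and 6 (18.2%) lower, beside 13.4% and 21.0% of all genes. Pola1, a subunit of the polymerase that starts new strands, was at -0.60, Prim1, the primase, at -0.39, the licensing factor gene Cdt1 at -0.36 and Pcna, the polymerase clamp, at -0.36.

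Of 14 regulators of G2 and mitotic transcription tested, 1 (7.14%) was higher and 3 (21.4%) lower between KO and WT, with a median of -0.03. Of all genes, 21.6% were higher and 31.5% lower. Foxm1, a transcription factor of mitotic genes, differed by 0.01 between KO and WT (adjusted p = 0.848) and rose by 0.24 between WT and Het (adjusted p = 0.00642). Mybl2, which acts with MuvB, differed by 0.01 and 0.14 and did not pass. Rbl1 and Rbl2, relatives of the retinoblastoma gene that repress these promoters, fell in KO by 0.39 and 0.22 and in Het by 0.24 and 0.28, each against WT. Nfya, a subunit of NF-Y, fell in KO by 0.27. Lin52, a MuvB subunit, was higher than in WT by 0.35 in KO (adjusted p = 0.00886) and by 0.34 in Het (adjusted p = 0.0165).

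Of the 7 CDK inhibitors, which hold the cell cycle back, 4 differed by more than any member. All 7 passed between KO and WT, 3 higher and 4 lower, where 21.6% of all genes were higher and 31.5% lower. Cdkn1a, which encodes p21, was higher by 0.89 and Cdkn2b, which encodes p15, by 0.83, while Cdkn1c, which encodes p57, was lower by a log2 difference of -1.69 and Cdkn2c, which encodes p18, by -0.68. Between Het and WT Cdkn1a differed by 0.28 and Cdkn1c by -1.01.

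**Figure D5:**
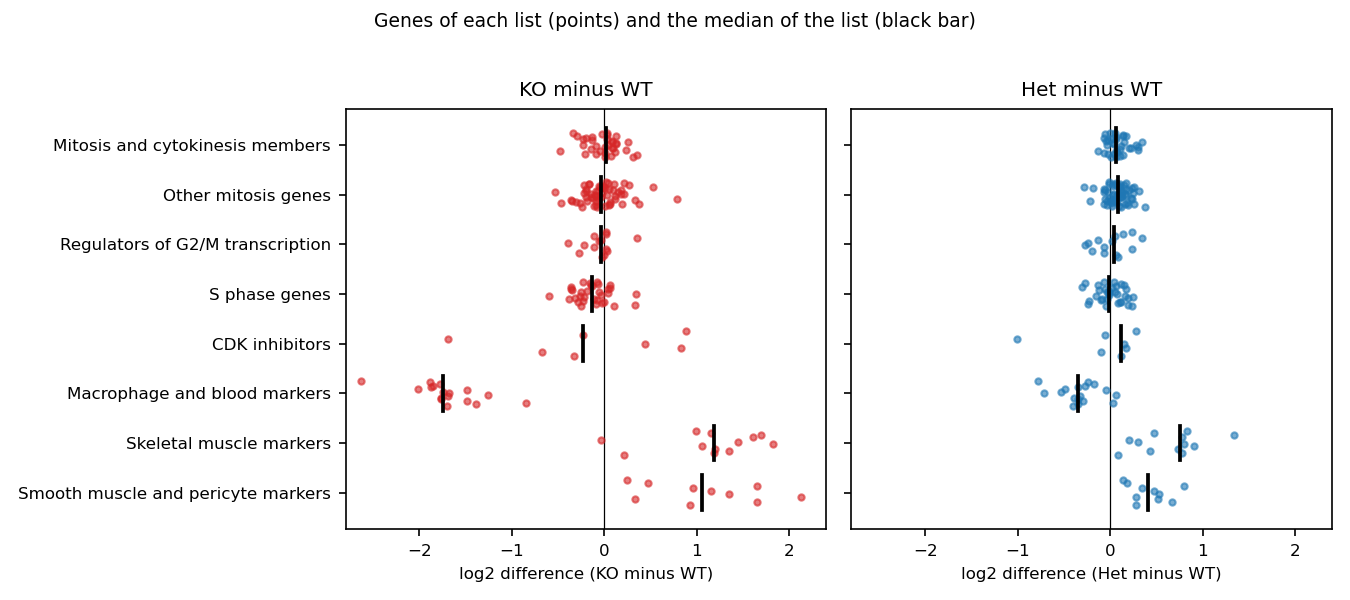
Points are genes of each list and black bars list medians, as log2 differences between KO and WT and between Het and WT. The members and other mitosis genes cluster near 0, S phase genes sit slightly below 0 in the KO and WT panel at a median of -0.13, and the macrophage and muscle lists lie far to the left and right.

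Markers of other cell types moved with the lines, and their part in the members' values was not tested. Of all genes, 21.6% were higher and 31.5% lower between KO and WT. Macrophage and blood markers were lower in KO than in WT in 17 of 17 tested of 19 listed, with a median of -1.75, and their mean level was 11.27 to 11.29 in WT, 10.90 to 10.98 in Het and 9.54 to 9.62 in KO arrays. Skeletal muscle markers were higher in 11 of 12 (median 1.19; mean level 7.09 to 7.13 in WT, 7.67 to 7.83 in Het and 8.23 to 8.28 in KO arrays), with Myod1 and Myf5 below the low-value threshold. Smooth muscle and pericyte markers were higher in 10 of 10 (median 1.06; mean level 10.25 to 10.27, 10.66 to 10.71 and 11.33 to 11.38). Between Het and WT these medians were -0.35, 0.75 and 0.41. Of 13 fibroblast markers, 2 were higher and 7 lower in KO than in WT, with a median of -0.15, and the receptor gene Pdgfra was at -2.55. Epithelial markers were higher in 4 of 5 tested, with Cdh1, Krt14, Wt1, Msln and Upk3b below the threshold. Endothelial markers were lower in 1 of 3, with Pecam1, Cdh5, Tek, Tie1 and Emcn below it, and neural and glial markers were higher in 4 and lower in 1 of 6.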

How the data were processed

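RNA from 3 MEF lines was measured on 9 Affymetrix expression arrays. The authors deposited a table of log2 values, from 3.25 to 15.1, made with GCOS and Partek per the submitters' processing notes. Background correction, normalization and summarization are not given in the sources used here, and the log base was read from the values, which were used as deposited. The members and the other gene lists were chosen with earlier results of these data known.

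Control probe sets (64) were left out, and symbols came from the platform annotation (34945 probe sets with 1 symbol, 932 with several, 9160 with none). Probe sets with several symbols were given to no gene. The 40% of probe sets with the lowest means (a log2 mean under 6.22) were dropped. The probe set with the highest mean stood for each gene. Lines were compared with limma 3.58.1 (lmFit, eBayes) in R 4.3.3, over all 9 arrays, with Benjamini-Hochberg adjustment over 12962 genes. "Rose", "fell", "higher" and "lower" mean an adjusted p below 0.05. The steps were tested on simulated data. Arrays have no read depth, so the number of arrays limits the precision.

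Array values were printed for the 8 members with the largest KO and WT differences that passed, and for Mki67, Top2a, Cdk1, Aurkb and Plk1, and up to 4 genes were named from other lists by size, besides Foxm1 and Mybl2, named whatever their result. Same-numbered arrays of different lines, each taken as its difference from the line's mean for every gene, correlated at -0.18 to 0.21. Arrays of unlike number were not compared in this way, so whether the numbers pair the arrays was not settled. The alternatives were other scalings, filters, probe set rules, fits and folds, a replicate block, and each array left out.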

Additional observations from a re-analysis of the deposited data

How the results depend on the processing

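Of the results of single genes under an alternative, 1636 kept their direction and side of the threshold, 88 lost the call, 51 gained it, 7 turned direction with a call on either side, and 51 turned direction without one. The calls of 9 of 17 members between KO and WT (Anln, Aurkb, Bub1, Bub1b, Ccnb2, Ect2, Mki67, Nusap1 and Racgap1), 2 of 9 between Het and WT and 10 of 17 between KO and Het passed in every alternative run other than the 1.5-fold and 2-fold minimums. Between KO and WT, with 1 array left out, 4 (without WT array 1) to 8 members were higher and 8 to 10 lower, and the median was 0.0033 to 0.03. Between Het and WT, 6 to 12 were higher and 0 lower, with a median of 0.053 to 0.085, the highest without Het array 1. Between KO and Het, 2 to 4 were higher and 11 to 15 lower, with a median of -0.12 to -0.080, the highest without Het array 3. At 1.5-fold or 2-fold, 0 members were higher or lower in any comparison. The count lower in Het was 1 after median centring, 2 with the mean of probe sets, and 1 each without _s_at or _x_at probe sets and with trended and robust variance. The Het and WT median was 0.093 after quantile normalization and 0.024 after median centring. For KO and Het, median centring gave 6 higher, and the median was -0.12 after quantile normalization, -0.053 after median centring, -0.059 with the mean of probe sets and -0.053 without _s_at or _x_at probe sets. With the mean of probe sets, among genes with a call on either side, the sign turned for Top2a (KO and WT, 0.047, adjusted p = 0.401), Kif11 (Het and WT, -0.12, 0.0479), Cep55 (Het and WT, -0.24, 0.00394) and Ccna2 (KO and Het, -0.11, 0.0237). Without _s_at or _x_at probe sets it likewise turned for Bub3 (-0.15, 0.0119), Cdca8 (-0.021, 0.832) and Kif2c (-0.0068, 0.931) between Het and WT. The causes were not tested. A replicate block takes same-numbered arrays together, though whether the numbers pair them was not settled. It gave 8 higher and 10 lower between KO and WT, and 8 and 0 between Het and WT. For KO and Het it gave 3 and 12.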
